A study of Homo sapiens with 24 samples.

Results

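Cytosolic ribosomal proteins build the large (RPL) and the small (RPS) subunit of the ribosome that translates nuclear-encoded mRNAs. Their mRNAs are short, abundant and mostly begin with a 5′ terminal oligopyrimidine (TOP) tract, a C followed by an unbroken run of pyrimidines. Through this tract their translation is known to follow nutrient supply and mTOR signalling, with LARP1 among the proteins that bind it, so that the group can shift between polysomes and untranslated mRNA. The 85 genes described here were chosen by a rule on gene names, which uses no measured value: they are the protein-coding genes of the count table with a symbol of RPL or RPS followed by a number, together with RPSA and the stalk genes RPLP0, RPLP1 and RPLP2. The table lists 20345 genes, of which 19086 are annotated as protein-coding. Other symbols that begin alike, such as those of the S6 kinases, were left out (12 symbols). The 85 genes comprise 77 core genes (46 of the large and 31 of the small subunit) and 8 paralogs, namely RPL3L, RPL7L1, RPL10L, RPL22L1, RPL26L1, RPL36AL, RPL39L and RPS27L. Of these, 82 had enough reads to be tested (76 core genes and 6 paralogs), whereas the other 3, RPL10L and RPL3L among them, had at most 2 counts in any library.

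The samples are labelled as A2058, an established human melanoma line, in cultures that received either control siRNA (siCTRL) or siRNA to LSM14A (siLSM14A), which encodes an RNA-binding protein of P-bodies, the cytoplasmic granules that hold untranslated mRNA. Cells were left without treatment (NT) or received hydroxyurea (HU), which starves DNA replication of nucleotides, at 10 mM for 2 h. This gave 4 conditions, siCTRL NT, siCTRL HU, siLSM14A NT and siLSM14A HU, with 3 replicate cultures each, and all cultures carried an siRNA. For the polysomes, cells were collected and lysed with cycloheximide, which holds ribosomes on the mRNA. Polyadenylated RNA was sequenced from total RNA and from the heavy polysome fractions of a sucrose gradient, 24 libraries in all. The total and the polysomal library of 1 condition and replicate number are taken here as 1 culture, 12 in all. The labels tie them by this number only, and the deviations of both from their group means correlated between -0.31 and 0.24, with -0.31, 0.11 and -0.23 in siLSM14A NT. The ratios per culture rest on this tie, whereas the tests do not. Every condition rests on 1 cell line, and the labels do not say what cultures of one replicate number share, so that p-values measure the spread between these cultures only.

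Libraries held 24789280 to 44897501 counts, with a median of 34650474. LSM14A itself stood at 84.3 ± 2.33 CPM (counts scaled to a common library size, SD, n = 3) in total RNA of siCTRL NT cells and at 7.52 ± 0.708 CPM in siLSM14A NT cells. Upon HU it stood at 85.9 ± 5.08 and 6.81 ± 0.794 CPM. The melanocyte lineage genes SOX10 (550 to 666 CPM), DCT (653 to 912) and PMEL (306 to 381) were present in all 12 total RNA libraries, MLANA was low (5.48 to 10.2), and the immune, epithelial and endothelial markers PTPRC, CD3E, EPCAM, KRT5 and CDH5 reached at most 0.217 CPM. A single polysomal library, siLSM14A NT replicate 2, stood apart from the others in its share of ribosomal protein counts. The share and the medians are given with and without it. Among single genes, this was looked at only for those with the smallest p in a test, where it moves the value by over 1.5 times.

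The start sites of the annotated canonical transcripts show the feature that the group is known for. A run of at least 5 pyrimidines that begins with a C within 5 bases of the start was present in 69 of the 85 genes (81.2%), against 4134 of 18805 protein-coding genes with an annotated start (21.98%) and 14 of 76 mitochondrial ribosomal protein genes (18.4%). The sequences below are 30 bases of GRCh37 (hg19), written 5′ to 3′ on the strand of the gene, with the annotated start at position 16 and the pyrimidine run in capitals. The first set belongs to mRNAs that were among the highest in polysomal relative to total RNA.
RPS9 (chr19:54704711-54704740, plus strand): gtggcgcttgcgcgCCTCTTTCTCagtgac
RPL3 (chr22:39715614-39715643, minus strand): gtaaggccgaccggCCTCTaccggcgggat
RPL18 (chr19:49122421-49122450, minus strand): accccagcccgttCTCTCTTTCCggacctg

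The second set belongs to mRNAs that were among the lowest in polysomal relative to total RNA.
RPS29 (chr14:50053084-50053113, minus strand): tgcgtgggccagCTTCTTCCTTTTacctcg
RPS24 (chr10:79793606-79793635, plus strand): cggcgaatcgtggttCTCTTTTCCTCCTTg
RPL31 (chr2:101618736-101618765, plus strand): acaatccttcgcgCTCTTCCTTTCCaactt
RPS25 (chr11:118889039-118889068, minus strand): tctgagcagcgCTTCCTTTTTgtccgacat
Both sets hold a pyrimidine run at the start, of 5 to 10 bases in the first and 10 to 14 bases in the second. These are chosen examples, and their difference in run length does not extend to the group. RPL7A (20 bases) and RPL15 (0) were both higher in polysomal RNA in all 4 conditions, and RPL39 (18) and RPL23A (1) both lower. Over the 82 genes, Spearman's rho of run length with the mean ratio of polysomal to total RNA was -0.072. The third set places 2 core genes beside paralogs that lack a run of 5 pyrimidines in this window. Of the 8 paralogs, 3 do have one, RPL22L1 (10 bases), RPL36AL (8) and RPL26L1 (5).
RPS27 (chr1:153963223-153963252, plus strand): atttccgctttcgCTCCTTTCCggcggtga
RPS27L (chr15:63449662-63449691, minus strand): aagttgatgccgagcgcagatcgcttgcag
RPL39 (chrX:118925579-118925608, minus strand): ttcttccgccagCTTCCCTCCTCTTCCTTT
RPL39L (chr3:186857270-186857299, minus strand): gcatccggggaaatcgcggtcttagcatcc

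The 85 genes took about 6% of all protein-coding counts in total RNA. Their share was 6.07 ± 0.169% in siCTRL NT, 6.14 ± 0.166% in siCTRL HU, 5.83 ± 0.337% in siLSM14A NT and 6.10 ± 0.100% in siLSM14A HU cells (SD, n = 3 each). In polysomal RNA the share was 5.29 ± 0.276%, 5.69 ± 0.654%, 5.97 ± 1.00% and 5.10 ± 0.0939%, in the same order. The share in polysomal RNA was below that in total RNA in 9 of 12 cultures. The 3 exceptions were siCTRL HU replicate 2, siLSM14A NT replicate 2 and siLSM14A NT replicate 3, with polysomal shares 1.01, 1.21 and 1.01 times those in total RNA. The siLSM14A NT mean rested on replicate 2 (7.12%, against 5.29 and 5.51% in the other replicates), and without it the polysomal mean was 5.40%. In bulk RNA, fewer cells and less RNA per cell cannot be told apart, and all values are relative to the other mRNAs of the library.

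**Figure D1:**
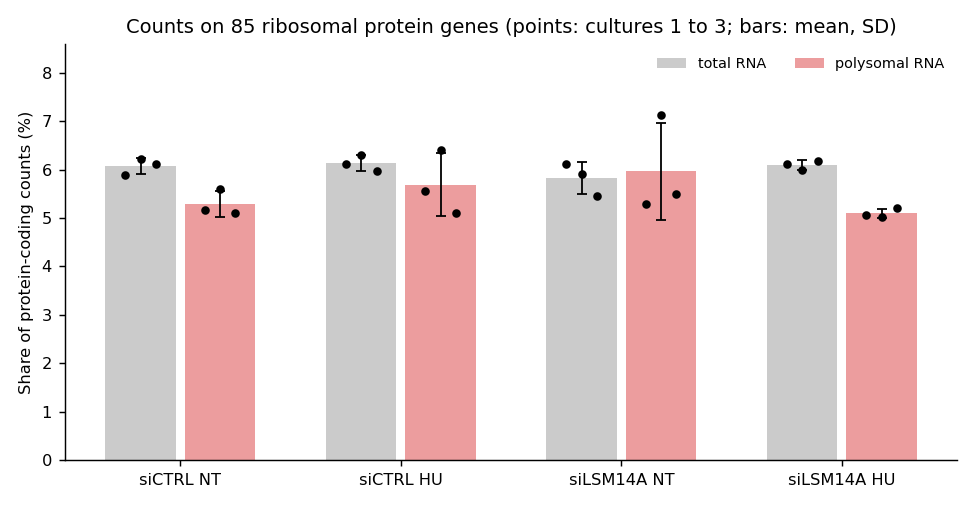
Share of protein-coding counts (%, vertical axis) on the 85 ribosomal protein genes in total (grey) and polysomal (red) RNA of the 4 conditions. Points are the 3 cultures in the order of their replicate numbers, bars the means and whiskers the SD. Total RNA lies between 5.46 and 6.31% in every culture, and the highest polysomal value, 7.12%, is siLSM14A NT replicate 2.

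Among single genes, the level in total RNA is compared per kilobase, and these values are CPM per kb of all annotated exons of the gene merged. In siCTRL NT cells RPS18, a protein of the head of the small subunit, was highest at 1097 CPM per kb, and its values were 1960, 2055 and 2020 CPM in the 3 cultures. RPS12 (839 CPM per kb), RPL8 (674) and RPS27 (658) followed. On the length of the canonical transcript instead, RPS18 stayed first (3664 CPM per kb), while RPS12 stood at 1066, RPL8 at 1360 and RPS27 at 1921 CPM per kb, so that the order below RPS18 depends on which length is used. RPL3L and RPL10L were among the lowest, with means under 0.01 CPM in total RNA of siCTRL NT cells, and RPL36A stood at 0.991 CPM per kb. RPL36A was also the most variable, with 8.13, 1.27 and 2.39 CPM in the 3 siCTRL NT cultures.

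Several of the lowest core genes share exons with other annotated genes. Less than 50% of the coding bases were free of another gene in 7 genes, among them RPL17 (0%), RPL36A (5.66%), RPS10 (7.88%), RPL26 (28.97%), RPL22 (40.1%) and RPS15A (45.4%). RPL17, RPL36A and RPS10 overlap the read-through genes RPL17-C18orf32, RPL36A-HNRNPH2 and RPS10-NUDT3. Their counts are therefore uncertain, and the medians below are also given without them. The 82 tested genes further have a median of 12.5 annotated pseudogenes each, up to 133 for RPL21, with which reads can be shared.

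Among the genes with known roles outside or at the edge of the ribosome, total RNA levels in siCTRL NT cells were 1486 ± 64.6 CPM for RPLP0, 1091 ± 56.0 for RPLP1 and 640 ± 27.2 for RPLP2 (the stalk that recruits elongation factors), 803 ± 19.5 for RPSA (also known as a laminin receptor) and 1108 ± 30.1 for RPS3. RPS6, the target of the S6 kinases, stood at 1138 ± 62.9 CPM, and RPS19, mutated in Diamond-Blackfan anaemia, at 644 ± 12.8. RPL5 (729 ± 20.4) and RPL11 (671 ± 16.5), which bind MDM2 together with 5S rRNA, lay close to each other, and RPL41, the shortest of all, stood at 528 ± 29.5 CPM. RPL26 stood at 23.8 ± 2.33 CPM and is one of the genes with shared exons. Per kb of merged exons, these levels are 373 (RPLP0), 335 (RPLP1), 391 (RPLP2), 104 (RPSA), 189 (RPS3), 422 (RPS6), 186 (RPS19), 198 (RPL5), 252 (RPL11), 477 (RPL41) and 9.63 CPM per kb (RPL26). Over the 4 conditions the means in total RNA moved little, for RPLP0 between 1367 and 1524 CPM and for RPS6 between 1127 and 1212.

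How these mRNAs stood in heavy polysomes was tested in each condition as polysomal against total RNA, with edgeR's quasi-likelihood test and an adjusted p under 0.05 over all genes as the call. Members were called in both directions, as all genes were. In siCTRL NT cells 16 of 82 were higher and 27 lower in polysomal RNA, where 31.4% of all 12431 genes tested were higher and 32.3% lower. In siCTRL HU cells 28 were higher and 18 lower (all genes: 36.2 and 37.4%). In siLSM14A NT cells 30 were higher and 14 lower (32.1 and 32.3%), and in siLSM14A HU cells 18 were higher and 34 lower (32.8 and 34.1%). These counts moved with single cultures, to 23 in all without siCTRL NT replicate 2, 26 without siCTRL HU replicate 1 and 21 without siLSM14A NT replicate 3, against 43, 46 and 44 with all cultures. Fits with fewer cultures have less power for every gene. The calls over all genes in these fits are not given, so whether the fall is particular to the members is not shown. The median log2 change of the 82 was -0.12, 0.12, 0.15 and -0.15, in the same order of conditions, beside -0.03, -0.05, -0.03 and -0.04 over all genes. The median ratio per culture turned from 0.05 to -0.06 in siCTRL HU without replicate 2 and from 0.12 to -0.0090 in siLSM14A NT without replicate 2. Mitochondrial ribosomal protein mRNAs (75 tested), which serve the ribosome of the mitochondrion, had medians of 0.25, 0.31, 0.45 and 0.25.

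The 3 leading genes of each direction, ranked by p, were largely shared between conditions. RPS9, a protein of the small subunit near the path of the mRNA, was among the 3 higher genes in every condition. Its change was 0.92 ± 0.13 (log2, SE) in siCTRL NT, 1.14 ± 0.13 in siCTRL HU, 1.22 ± 0.15 in siLSM14A NT and 0.94 ± 0.08 in siLSM14A HU cells. The highest of its 4 adjusted p-values was 0.000712 (edgeR). RPL3, which lies by the peptidyl transferase centre, was also among them in both NT conditions (0.76 ± 0.12 and 0.90 ± 0.10), and RPL8, its neighbour there, in both HU conditions (1.21 ± 0.16 and 1.01 ± 0.08). On the lower side stood RPS29 (-0.94 ± 0.10 in siCTRL NT), RPS24 (-0.83 ± 0.10 in siCTRL NT, -0.66 ± 0.11 in siLSM14A NT, -0.83 ± 0.08 in siLSM14A HU), RPL36AL (-0.87 ± 0.10 in siCTRL NT, -0.68 ± 0.10 in siCTRL HU, -0.75 ± 0.10 in siLSM14A NT) and RPL31 (-0.83 ± 0.08 in siLSM14A HU). RPL17 (-1.11 ± 0.17 in siCTRL HU and -1.02 ± 0.14 in siLSM14A NT) and RPL26 (-0.91 ± 0.14 in siCTRL HU and -1.38 ± 0.10 in siLSM14A HU) were also among them, both with shared exons.

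Across the 4 conditions, 15 genes were higher in polysomal RNA in all 4, among them RPL3, RPL7A, RPL8, RPL10, RPL13A, RPL15, RPL18, RPL28, RPS3, RPS9, RPS16 and RPSA. A further 12 were lower in all 4 (RPL17, RPL22, RPL23A, RPL26, RPL31, RPL36A, RPL36AL, RPL39, RPS24, RPS25, RPS27L and RPS29). No gene was higher in one condition and lower in another, and 15 were called in none, among them RPL5, RPLP2 and RPS2. In single conditions, 31.4 to 36.2% of all genes were higher and 32.3 to 37.4% lower. How many of all genes were called alike in all 4 is not given, so these counts are not read as a trait of the members.

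The log2 ratio of polysomal to total CPM in each culture shows how reproducible this order was. RPL8 had the highest mean ratio over the 12 cultures (1.10), with 0.95, 1.21 and 0.68 in siCTRL NT, 0.95, 1.46 and 1.13 in siCTRL HU, 0.94, 1.53 and 1.34 in siLSM14A NT, and 1.03, 1.00 and 0.99 in siLSM14A HU cells. RPS9 (mean 1.04) had 0.83, 1.15 and 0.74, then 0.90, 1.36 and 1.08, then 0.91, 1.46 and 1.19, then 0.93, 1.02 and 0.86, in the same order. Both were above 0 in every culture, and for both the highest value was siLSM14A NT replicate 2. RPL3 (mean 0.79) lay between 0.53 and 1.05.

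At the other end, RPS29 had -0.90, -0.86 and -1.07 in siCTRL NT, -0.57, -0.40 and -0.98 in siCTRL HU, -0.93, -0.01 and -0.57 in siLSM14A NT, and -1.03, -0.72 and -1.30 in siLSM14A HU cells. All 12 values were below 0, but siLSM14A NT replicate 2 lay close to it. RPS24 (mean -0.74) ranged from -1.03 to -0.46 and overlapped between all conditions. The 4 lowest means belonged to RPL36A (-2.08), RPL17 (-1.17) and RPL26 (-1.07), which are 3 of the genes with shared exons, and to the paralog RPS27L (-0.84). RPL36A is counted by few reads, and its ratio ran from -3.94 to -0.31.

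In all, 24 of the 82 mRNAs had a ratio above 0 in all 12 cultures, 15 below 0 in all 12, and 43 lay on both sides. How many of all genes lay on one side is not given, so whether this is particular to the group is not shown. Between any 2 cultures the ratios of the 82 genes correlated across genes with Pearson's r of 0.772 to 0.978 (median 0.932 over 66 pairs). Genes of one library are not independent replicates, and the pairs share the annotation and base composition of the genes.

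**Figure D2:**
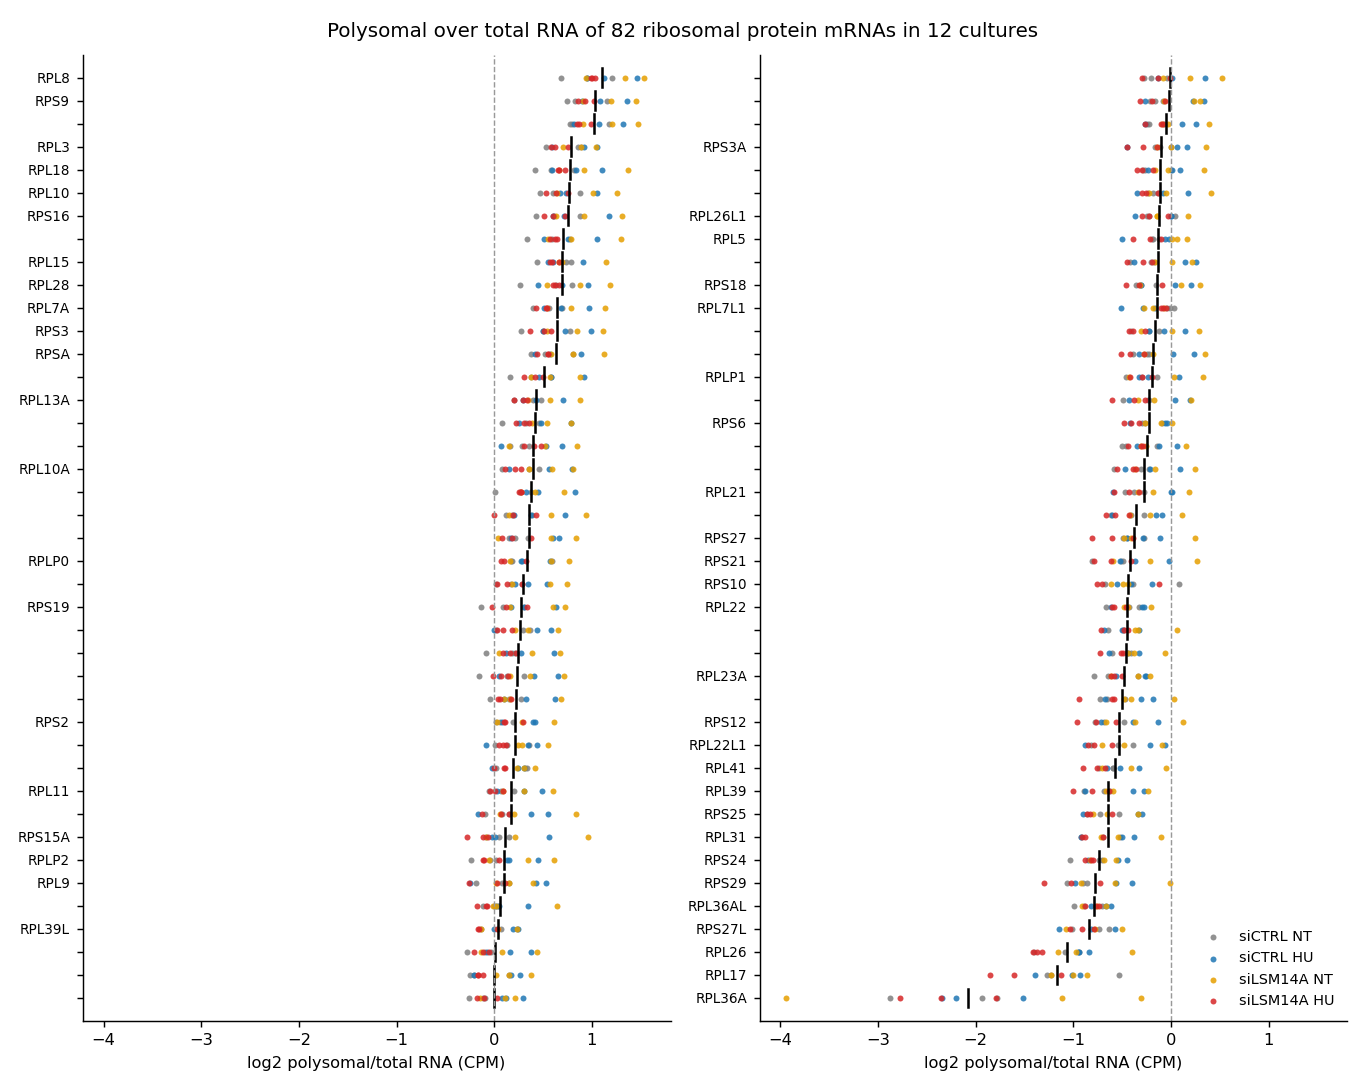
Log2 ratio of polysomal to total RNA (horizontal axis, log2 of CPM ratio) of the 82 tested genes, sorted by their mean over the 12 cultures (black bar). Points are single cultures, coloured by condition, and names are given for genes described in the text. The order runs from RPL8 (mean 1.10) to RPL36A (-2.08), and the spread between genes is wider than that between cultures of one gene, apart from RPL36A.

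What the mRNAs at both ends share was looked at in the annotation. Over the 82 genes the mean ratio was higher with coding length (Spearman's rho 0.486) and with the GC content of the exons (0.554). Over all genes tested, rho with GC content was 0.672 (12855 genes) and that with coding length -0.019 (12798 genes). The 42 genes with coding sequences of up to 453 bases had a median ratio of -0.16, and the 40 longer ones of 0.21. Within the group, rho was -0.072 with the length of the pyrimidine run and 0.051 with that of the 5′ untranslated region. These are descriptions across genes of the same libraries, and coding length and GC content were not separated from each other. Within single cultures, rho with GC content of the 82 genes was between 0.444 and 0.643.

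**Figure D3:**
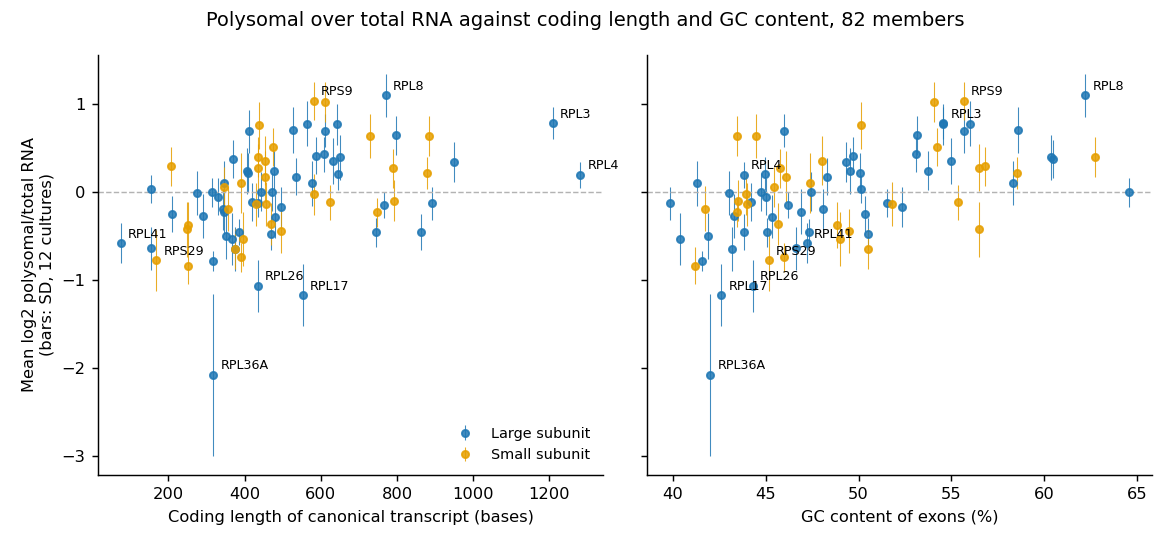
Mean log2 ratio of polysomal to total RNA (vertical axis, bars SD over 12 cultures) of the 82 genes against coding length in bases (left) and GC content of the exons in percent (right). Genes of the large subunit are blue and those of the small subunit orange. Ratios rise with both, with rho of 0.486 and 0.554, and RPL36A, RPL17 and RPL26 lie below the rest.

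The calls depended on whether GC content was corrected for, with a curve fitted on the other genes. Of the 15 genes higher in all 4 conditions, 7 remained so after the correction (among them RPL3, RPL15, RPS3, RPS9, RPS16 and RPSA), and of the 12 lower in all 4, 3 remained (RPL17, RPL23A and RPS25). The change of RPL8 in siCTRL HU cells went from 1.21 to 0.35 (adjusted p 0.0516, edgeR) and that of RPL36AL from -0.68 to 0.0076 (adjusted p 0.960). RPS9 stayed higher in every condition, at 0.47 to 0.75. The number of calls was similar, with 46, 40, 42 and 52 after the correction against 43, 46, 44 and 52 before, yet 23, 18, 27 and 35 of them were shared in the same direction and 1, 1, 0 and 2 were called in opposite directions. Of the genes that had been called in none, RPL5 and RPL9 were then higher in all 4, and RPL36 was lower in all 4. The SD of the change over the 82 genes went from 0.55, 0.56, 0.57 and 0.57 to 0.49, 0.50, 0.49 and 0.48, in the order siCTRL NT, siCTRL HU, siLSM14A NT and siLSM14A HU. After a correction for exon length instead, 14 were higher and 33 lower in siCTRL NT, 21 and 23 in siCTRL HU, 26 and 21 in siLSM14A NT, and 16 and 40 in siLSM14A HU cells. The shares of all genes after these corrections are not given, so the corrected counts are not read as a trait of the members.

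Whether polysome association changed between conditions was tested as the change in translation efficiency (TE), which is the interaction of fraction and condition in the same model. No gene at all passed an adjusted p of 0.05 in the 5 TE tests (0% of all genes, edgeR), and none did with DESeq2. The changes of most ribosomal protein mRNAs lay on one side of 0 in each test, and none was called. The genes share libraries, so a common shift of 1 library moves all of them.

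Upon HU in siCTRL cells, 76 of the 82 TE changes were positive, with a median of 0.21 (log2), beside -0.01 over all 12693 genes, and 1 of the 82 had an unadjusted p under 0.05 (all genes: 293, or 2.31%). RPS21 had the smallest p among the positive changes (0.32 ± 0.17, adjusted p 0.956, edgeR), and stood at 0.16 without siCTRL HU replicate 2 and 0.20 without siCTRL NT replicate 3. Upon HU in siLSM14A cells, 81 of 82 were negative, with a median of -0.33 beside 0.01 over all 12660 genes. Of these, 13 had an unadjusted p under 0.05 (15.9% of 82), all lower, against 179 of all genes (1.41%). RPL10A had the smallest p (-0.40 ± 0.15, adjusted p 1.00), and RPL7L1 was the one positive gene (0.09 ± 0.13, and 0.05 without siLSM14A NT replicate 2 or 0.15 without replicate 1). By subunit, 8 of 31 small and 5 of 51 large subunit genes were among the 13.

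The values behind RPL10A, the protein of the L1 stalk of the large subunit, were ratios of 0.36, 0.81 and 0.59 in siLSM14A NT and of 0.21, 0.27 and 0.11 in siLSM14A HU cells. In siCTRL cells they were 0.46, 0.35 and 0.07 without HU and 0.56, 0.79 and 0.15 with HU. The siLSM14A groups did not overlap, and the siCTRL groups did.

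LSM14A knockdown without HU came with positive TE changes in 78 of 82 (median 0.27, against -0.01 over 12757 genes), 1 of them at an unadjusted p under 0.05 (all genes: 111, or 0.870%). This was RPS29 (0.46 ± 0.21, adjusted p 1.00, edgeR), which stood at 0.19 without siLSM14A NT replicate 2. Under HU, siLSM14A cells had lower values than siCTRL cells in 81 of 82 (median -0.23, against 0.01 over 12649 genes), again with 1 at an unadjusted p under 0.05, RPL26 (-0.45 ± 0.17, adjusted p 0.778), against 487 of all genes (3.85%). These comparisons share cultures pairwise, so that their signs are not independent of each other.

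The difference between the HU response of siLSM14A and of siCTRL cells, tested as the interaction of HU and siRNA over all 24 libraries, was negative in 80 of 82 (median -0.52, against 0.02 over 12855 genes). An unadjusted p under 0.05 was found in 26 of them (31.7%), 25 lower and 1 higher, against 244 of all genes (1.90%). With the replicate number as a block there were 46, against 502 of all genes (3.91%), and again none was called. With DESeq2 there were 29, and the smallest adjusted p among the 82 was 0.896 (edgeR). RPS29 had the smallest p (-0.84 ± 0.29, p 0.00823 in edgeR, and -0.56 without siLSM14A NT replicate 2), and RPL7L1 was the one of the 26 that was higher (0.41 ± 0.17). Of the genes named above, the interaction was -0.76 ± 0.31 for RPL26, -0.71 ± 0.27 for RPLP2, -0.63 ± 0.26 for RPS19, -0.58 ± 0.26 for RPS3 and -0.55 ± 0.26 for RPL11, and -0.30 ± 0.20 for RPL5, -0.35 ± 0.20 for RPS6, -0.40 ± 0.28 for RPLP0, -0.40 ± 0.27 for RPSA, -0.44 ± 0.31 for RPLP1 and -0.57 ± 0.32 for RPL41. None of these passed the adjusted threshold. Their values without single cultures are not given, so how far they rest on siLSM14A NT replicate 2 is not shown.

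**Figure D4:**
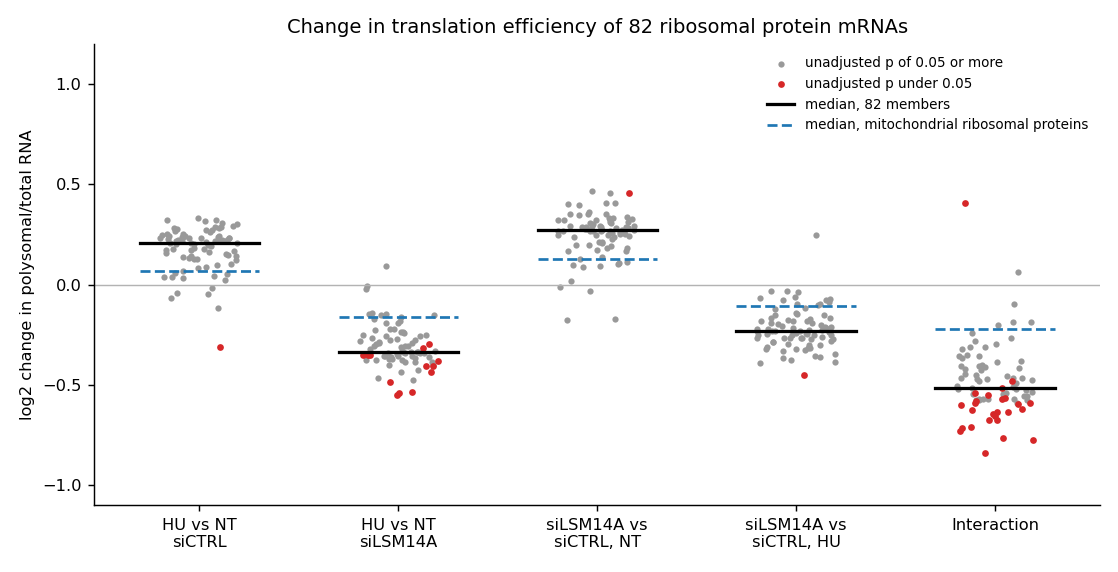
Change in translation efficiency (log2 change in polysomal over total RNA, vertical axis) of the 82 genes in 5 tests. Points are genes, red where the unadjusted p was under 0.05, black lines the medians of the 82 and dashed blue lines those of mitochondrial ribosomal protein mRNAs. The black lines stand at 0.21, -0.33, 0.27, -0.23 and -0.52 from left to right, and no point passed an adjusted p of 0.05.

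These medians moved with single cultures. The median ratio of the 82 genes was -0.06, -0.04 and -0.18 in siCTRL NT, 0.08, 0.28 and -0.20 in siCTRL HU, -0.08, 0.39 and 0.06 in siLSM14A NT, and -0.12, -0.07 and -0.23 in siLSM14A HU cultures. The 3 siLSM14A HU values overlapped with siLSM14A NT replicate 1, and siLSM14A NT replicate 2 was the highest of the 12. The conditions had means of -0.09 ± 0.08, 0.05 ± 0.24, 0.12 ± 0.24 and -0.14 ± 0.08 (SD, n = 3). Without the genes with shared exons these were -0.05, 0.10, 0.16 and -0.10. Without siLSM14A NT replicate 2, the median TE change upon HU in siLSM14A cells was -0.17, with 1 member at an unadjusted p under 0.05 (all genes: 0.722%), and the interaction median was -0.33, with 6 (0.873%). Without siLSM14A NT replicate 1 the same medians were -0.45 and -0.62, with 42 and 48 members, while the shares of all genes were 11.6 and 9.62%. Upon HU in siLSM14A cells 1 member was also left without siLSM14A HU replicate 1 (all genes: 0.738%) or replicate 3 (1.47%). For the interaction, 14 were left without siCTRL HU replicate 1 (2.82%), 13 without siLSM14A HU replicate 1 (1.38%), 10 without siCTRL NT replicate 3 (1.04%) and 8 without siLSM14A HU replicate 3 (0.981%).
For LSM14A knockdown without HU, the median was 0.10 without siLSM14A NT replicate 2 and 0.39 without siLSM14A NT replicate 1, with 0 and 12 members (all genes: 0.546 and 2.94%). Under HU it was -0.11 without siCTRL HU replicate 2 and -0.31 without siCTRL HU replicate 3, with 1 and 38 members (1.37 and 11.9%). Without siCTRL HU replicate 2 the median change upon HU in siCTRL cells was 0.08 and that of the interaction -0.38, with 0 and 6 members at an unadjusted p under 0.05 (all genes: 0.5497 and 0.719%), and without siCTRL HU replicate 3 they were 0.28 and -0.59, with 19 and 47 (5.96 and 6.21%). The sign of all 5 medians stayed the same whichever culture was left out.

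**Figure D5:**
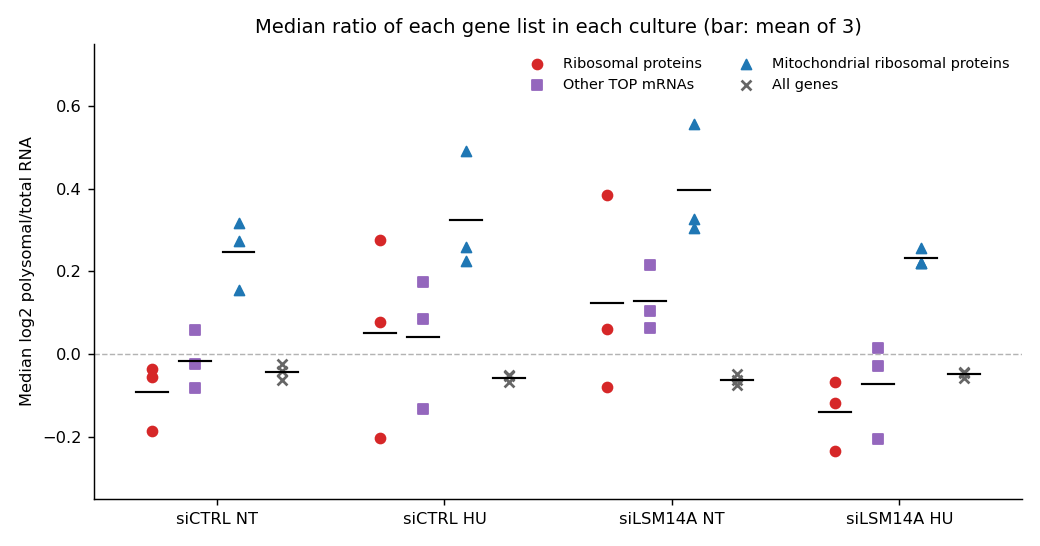
Median log2 ratio of polysomal to total RNA (vertical axis) of ribosomal protein mRNAs (82 genes), other TOP mRNAs (22), mitochondrial ribosomal protein mRNAs (75) and all genes in each of the 12 cultures. Points are cultures and bars the means of 3. The ribosomal protein medians of siLSM14A NT range from -0.08 to 0.39, while those of siLSM14A HU lie between -0.23 and -0.07.

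The medians of other TOP mRNAs and of mitochondrial ribosomal protein mRNAs lay on the same side, nearer to 0, and differences between lists were not tested. For other mRNAs with a known TOP tract (22 tested, such as EEF1A1, EEF2, TPT1 and RACK1), the median TE change was 0.06 and -0.16 upon HU in siCTRL and siLSM14A cells, 0.14 and -0.15 for siLSM14A without and with HU, and -0.27 for the interaction. For mitochondrial ribosomal protein mRNAs, few of which begin with a TOP tract, it was 0.07, -0.16, 0.13, -0.11 and -0.22. None of either list passed the adjusted threshold, and 2, 0 and 1 other TOP mRNAs had an unadjusted p under 0.05 upon HU in siLSM14A cells, upon HU in siCTRL cells and for the interaction. The spread of single TOP mRNAs was wide, from a mean ratio of -1.08 for PABPC1, the poly(A)-binding protein, and -0.80 for TPT1, to 1.07 for RACK1, a protein of the small subunit, and 1.79 for EEF2, the translocase. The 14 regulators of TOP translation included LARP1 (mean ratio 0.08), MTOR (1.05) and the mTOR target EIF4EBP1 (0.55). Their median TE change was 0.09 and 0.07 upon HU in siCTRL and siLSM14A cells. It was 0.02 and -0.03 for siLSM14A without and with HU, and -0.09 for the interaction. Only upon HU in siLSM14A cells did it lie on the other side from the ribosomal protein mRNAs. There, 0 of 14 had an unadjusted p under 0.05.

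In total RNA the ribosomal protein genes had medians near 0 in every comparison. None of the 82 passed an adjusted p of 0.05 in any of the 4 tests in edgeR, nor in DESeq2, where 0, 13, 9 and 2 had an unadjusted p under 0.05. Among the other TOP mRNAs, EIF3F, a subunit of initiation factor 3, was lower in siLSM14A cells without HU (-1.02 ± 0.07, adjusted p 2.97e-05, edgeR) and with HU (-1.02 ± 0.05, adjusted p 2.94e-07). Upon HU, no gene at all was called in siCTRL or in siLSM14A cells (0%), the medians of the 82 were 0.02 and 0.08 (log2), and 0 and 8 had an unadjusted p under 0.05, the 8 all higher (all genes: 180 and 650). RPL17 had the smallest p of the 8 (0.26 ± 0.09, adjusted p 0.855, edgeR), while RPS15A (0.12 ± 0.07) and RPL9 (-0.07 ± 0.06) led each direction in siCTRL cells, each with an adjusted p of 1.00. In siLSM14A NT against siCTRL NT cells, where 0.566% of all genes were called, the median was -0.06, with 7 lower and 2 higher members at an unadjusted p under 0.05 (10.98%), near the share of all genes (10.8%). The smallest p belonged to RPS19 (-0.23 ± 0.07, adjusted p 0.288, edgeR, and -0.15 without siLSM14A NT replicate 3), with 633, 640 and 658 CPM in siCTRL NT and 608, 550 and 488 CPM in siLSM14A NT cells. These groups did not overlap, and the siLSM14A values spread over a wider range.
RPS27L, the paralog of RPS27, lay on the other side (0.17 ± 0.06, adjusted p 0.298), with 52.8, 50.5 and 54.8 CPM in siCTRL NT and 56.9, 61.5 and 59.9 CPM in siLSM14A NT cells. Under HU, where 0.802% of all genes were called, the median was 0.01, with 2 members at an unadjusted p under 0.05 (2.44%, against 8.54% of all genes). RPL28 (-0.18 ± 0.07, adjusted p 0.414) was called with the replicate number as a block, at -0.18 and an adjusted p of 0.00426 (edgeR), and it had 562, 542 and 481 CPM in siCTRL HU and 475, 496 and 434 CPM in siLSM14A HU cells. Within each replicate number the siLSM14A value was lower, while the groups overlapped. The labels do not state such a pairing. The main test did not assume it. In the total RNA libraries of this comparison, same-numbered deviations from the group means correlated at 0.33, 0.18 and 0.25. In polysomal RNA of the same conditions the correlations were 0.045, 0.28 and 0.40.

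In polysomal RNA on its own, again none of the 82 was called in edgeR or DESeq2, where 0, 1, 0 and 2 had an unadjusted p under 0.05. No gene at all was called upon HU (0% in siCTRL and in siLSM14A cells), with medians of 0.22 and -0.23 and with 0 and 2 of the 82 at an unadjusted p under 0.05 (all genes: 259 and 107). For siLSM14A against siCTRL cells, 0.0162% of all genes were called without HU and 0.0653% with HU, with medians of the 82 of 0.20 and -0.23 and with 0 and 1 at an unadjusted p under 0.05 (all genes: 242 and 611). RPS3A (-0.36 ± 0.15, adjusted p 1.00, edgeR, and -0.24 without siLSM14A NT replicate 2) had the smallest p upon HU in siLSM14A cells, and RPL26 (-0.39 ± 0.17, adjusted p 0.739) in siLSM14A against siCTRL cells under HU. For RPL26 this was 15.1, 14.1 and 12.7 CPM in siCTRL HU and 10.9, 10.7 and 10.1 CPM in siLSM14A HU cells, groups that did not overlap.

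The paralogs are described apart. None of the 6 tested was higher in polysomal than in total RNA in any condition, and 3 were lower in each, where the 76 core genes had 16, 28, 30 and 18 higher and 24, 15, 11 and 31 lower, and where 31.4 to 36.2% of all genes were higher and 32.3 to 37.4% lower. RPL36AL and RPS27L were lower in all 4, RPL22L1 in siCTRL NT, siLSM14A NT and siLSM14A HU cells, and RPL7L1 in siCTRL HU cells. RPL36AL (mean ratio -0.78), RPS27L (-0.84) and RPL22L1 (-0.54) had a ratio below 0 in all 12 cultures, whereas RPL39L, the short paralog of RPL39, had a mean ratio of 0.04 against -0.64 for RPL39 itself. RPL26L1 (-0.12) and RPL7L1 (-0.15) lay between. In total RNA of siCTRL NT cells they stood at 195 ± 1.05 (RPL7L1), 161 ± 6.38 (RPL36AL), 73.7 ± 4.73 (RPL22L1), 52.7 ± 2.12 (RPS27L), 41.4 ± 2.15 (RPL26L1) and 21.7 ± 0.740 CPM (RPL39L). RPL7L1 had ratios of -0.01, 0.03 and -0.04 in siCTRL NT against -0.17, -0.51 and -0.28 in siCTRL HU cells, and of -0.07, -0.28 and -0.19 in siLSM14A NT against -0.10, -0.08 and -0.05 in siLSM14A HU cells. Its TE change upon HU in siCTRL cells, the only one of the 82 at an unadjusted p under 0.05 there, was -0.31 ± 0.13 (adjusted p 0.956, edgeR).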

How the data were processed

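RNA of 24 libraries was sequenced with the stranded, poly(A)-selecting kit that the methods name. After trimming, the authors mapped reads on hg19 by STAR (version 2.6.1a in the submitters' notes) and deposited read counts per gene, without normalization. The strand setting of the counting is not given in the sources used here, so reads of overlapping antisense genes cannot be told apart. Members, gene lists and tests were chosen with earlier results of these data known.

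For protein-coding genes, edgeR 4.0.16 was run on the counts under R 4.3.3 (quasi-likelihood F-test, TMM, filterByExpr with minimum counts of 10 per library and 15 in total, Benjamini-Hochberg adjustment over all genes), 17 tests in all. Each test was fitted on its own conditions, the interaction on all 24 libraries. SEs are the log2 change over the root of F. CPM and log2 ratios used TMM factors over all 24 libraries, the ratios with a prior count of 2. The 708 IDs outside the annotation and 551 genes of other types stayed out. Pairs of replicates differed by a chi-square per gene of 6.28 to 126.7, more than sampling noise. Scripts were tested on simulated data. The authors' Xtail test was not run.

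Named genes are those with the smallest p per test and direction (3 where any was called, otherwise 1), the 4 highest and lowest by mean ratio and by total RNA per exon length, 11 chosen by role (RPLP0, RPLP1, RPLP2, RPSA, RPS3, RPS6, RPS19, RPL5, RPL11, RPL26 and RPL41), the paralogs, and those of the lists that are described. RPL18, RPS25, RPL39 and the genes listed in counts lie outside this rule and were named after their values were seen. A few genes that the rule selects are not reported here.

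Replicate numbers were taken to pair cultures where all 3 same-numbered pairs correlated above 0.1 in their deviations from the group means. This held for siCTRL HU with siCTRL NT (total RNA 0.27, 0.25 and 0.19, polysomal RNA 0.25, 0.18 and 0.45), as well as siLSM14A HU with siCTRL HU in total RNA (0.33, 0.18 and 0.25). Alternatives were DESeq2 1.42.0, RLE size factors, scaling without the members, 2 other filters, GC and length corrections (loess, span 0.3), replicate and culture blocks, and each culture left out.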

Additional observations from a re-analysis of the deposited data

Results flagged for a closer look

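The mean change of RPL7L1 upon HU had opposite signs in the siRNA groups. The gene was looked at because it had the smallest p among the higher members in the interaction. Its log2 ratio of polysomal to total RNA changed by -0.31 in siCTRL cells, where every HU culture lay below the NT mean (by -0.50 to -0.16), and by 0.10 in siLSM14A cells, where every HU culture lay above it (by 0.08 to 0.13). In siLSM14A cells, however, the NT and HU cultures overlapped, and the TE change there was 0.09 ± 0.13 (log2, SE, unadjusted p 0.474 in edgeR). A change upon HU was thus not shown in siLSM14A cells. The difference was tested as the interaction of HU and siRNA, at 0.41 ± 0.17 (log2, SE, unadjusted p 0.0220, adjusted p 0.896 in edgeR), and did not pass the adjusted threshold.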

How the results depend on the processing

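Leaving out cultures moved the counts most. Such fits have less power for every gene, and their calls over all genes are not given. Members called in polysomal against total RNA were 23 to 43 in siCTRL NT (43 with all cultures, lowest without replicate 2), 26 to 50 in siCTRL HU (46, lowest without replicate 1), 21 to 43 in siLSM14A NT (44, lowest without replicate 3) and 36 to 55 in siLSM14A HU (52). The median ratio of the members was -0.12 to -0.05, -0.06 to 0.18, -0.0090 to 0.22 and -0.18 to -0.09 in the same order. After GC correction it was -0.0083 in siCTRL NT and -0.043 in siLSM14A HU cells. GC correction with the replicate block left RPL8 at 0.34 (adjusted p 0.0865) and RPL36AL at -0.0039 in siCTRL HU cells, and RPL36AL at -0.18 in siLSM14A NT cells (-0.17 with GC correction alone). RPL36AL turned to 0.0076 in siCTRL HU cells with GC correction, RPL9 in total RNA upon HU in siLSM14A cells (-0.05, not called) turned to 0.010 with GC correction and to 0.0091 with GC correction and the replicate block, and RPS10 in polysomal RNA upon HU in siLSM14A cells (0.13, not called) turned to -0.050 without siLSM14A HU replicate 2 and was 0.25 at most, without siLSM14A HU replicate 3. The cause was not tested. With the replicate block, 1 member was called in total RNA of siLSM14A HU against siCTRL HU cells, RPL28, and also 1 with GC correction added. The block changed no other count of calls by over 1.5 times, and it moved the genes at an unadjusted p under 0.05 in the TE interaction from 26 to 46. All other alternatives gave counts within 1.5 times and medians within 1 SD, including scaling within the 6 libraries of a condition and leaving out the genes with shared exons, both chosen after seeing the data. Counts of reads limit RPL36A, RPL17, RPL26 and RPS10.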
